A study of Mus musculus with 2 samples.

Results

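The lysosomal cathepsins and legumain were examined as a set of 10 protease genes, namely Ctsa, Ctsb, Ctsc, Ctsd, Ctsh, Ctsk, Ctsl, Ctss, Ctsz and Lgmn. They were taken as named lysosomal proteases and matched by symbol, and all 10 of the 36458 gene symbols with a usable value had 1 entry in each library. RNA-seq had been carried out on adherent cells from livers of adult male C57/Bl6 mice given carbon tetrachloride (CCl4), a hepatotoxin, for 5 weeks. The control group, labelled wild-type, was Foxf1 fl/fl and so carried the floxed alleles without Cre, and the knockout group was αSMACreER;Foxf1 fl/fl, in which a tamoxifen-inducible Cre is driven by the αSMA promoter and deletes Foxf1 in cells that express αSMA. Per the study's methods, tamoxifen was injected every week from the second week of injury. Liver cells were plated for 2 hours, the adherent cells were collected as a stromal population, and samples were pooled into 1 library per genotype. Replicates to check a genotype difference were thus lacking, and p-values are not given.

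Cathepsins are proteases of the acidic lysosome, where they degrade proteins delivered by endocytosis, phagocytosis and autophagy. Most are cysteine proteases of the papain family, Ctsd is an aspartic protease, Ctsa is a serine carboxypeptidase and Lgmn cleaves after asparagine. They are made as inactive precursors and are carried to lysosomes mainly by mannose 6-phosphate receptors. The cysteine proteases among them are restrained by cystatins. Macrophages are rich in cathepsins, and in fibrotic tissue several can cleave collagen, both inside lysosomes after uptake and, when secreted, outside the cell.

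The promoters of 4 members are shown, Ctsd and Ctsk as the highest and lowest in level, Ctss as the neighbour of Ctsk on chromosome 3, and Ctsa for its copies of the CACGTG motif. RefSeq windows of 300 bases, from 250 before to 50 after an annotated start (build GRCm38.p6), were matched for 8 members and not for Ctsb and Ctsh. Because Ctsa and Lgmn have more than one annotated start, there were 10 windows in all. Capitals in the first pair mark CACGTG, the core of the site bound by TFEB and related regulators of lysosomal genes. Capitals in the second pair mark GAGGAA or its reverse complement TTCCTC, the core of the site bound by PU.1, a factor of myeloid cells.
Ctsd, chr7:142387778-142388077, minus strand: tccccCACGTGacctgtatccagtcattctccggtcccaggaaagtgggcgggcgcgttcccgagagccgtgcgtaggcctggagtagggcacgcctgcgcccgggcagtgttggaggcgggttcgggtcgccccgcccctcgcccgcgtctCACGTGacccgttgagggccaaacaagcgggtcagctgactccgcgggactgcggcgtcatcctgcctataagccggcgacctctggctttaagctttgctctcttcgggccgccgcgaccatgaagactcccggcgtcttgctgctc
Ctsa, chr2:164833523-164833822, plus strand: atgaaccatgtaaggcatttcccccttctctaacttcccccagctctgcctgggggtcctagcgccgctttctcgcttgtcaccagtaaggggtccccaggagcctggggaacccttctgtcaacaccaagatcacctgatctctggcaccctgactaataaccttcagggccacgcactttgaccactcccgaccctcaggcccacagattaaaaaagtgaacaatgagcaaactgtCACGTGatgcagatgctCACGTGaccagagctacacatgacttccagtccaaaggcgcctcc
Ctss, chr3:95526536-95526835, plus strand: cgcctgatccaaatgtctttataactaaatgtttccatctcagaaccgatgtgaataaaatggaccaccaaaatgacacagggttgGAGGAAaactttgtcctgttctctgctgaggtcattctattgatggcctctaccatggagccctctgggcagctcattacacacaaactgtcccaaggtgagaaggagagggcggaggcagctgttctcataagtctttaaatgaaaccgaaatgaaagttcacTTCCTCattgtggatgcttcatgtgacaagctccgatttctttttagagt
Ctsk, chr3:95498960-95499259, plus strand: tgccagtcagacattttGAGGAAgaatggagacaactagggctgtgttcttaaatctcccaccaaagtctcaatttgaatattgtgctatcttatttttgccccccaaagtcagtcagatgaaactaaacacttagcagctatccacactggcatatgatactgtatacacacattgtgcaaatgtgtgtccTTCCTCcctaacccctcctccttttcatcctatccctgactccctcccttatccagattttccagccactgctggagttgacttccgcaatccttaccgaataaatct

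CACGTG was present in windows of 4 members (Ctsa, Ctsd, Ctsl and Lgmn), against 7.15% of all 32851 windows in the table. The Ctsd window holds it from position -245 to -240 and from -98 to -93, counted from the annotated start. The Ctsa window printed above holds it from -12 to -7 and from 6 to 11, whereas the Ctsa window that starts at 164832622 does not. GAGGAA lies from -164 to -159 and from 1 to 6 in Ctss, and from -233 to -228 and from -58 to -53 in Ctsk. The longer TCACGTG, which contains CACGTG, was present in windows of 3 members (Ctsa, Ctsd and Lgmn) and in 3.77% of all windows. GAGGAA was present in windows of 3 members (Ctsc, Ctsk and Ctss) and in 28.3% of all windows. The longer AGAGGAA, which contains it, was in 0 of the 10 windows and in 10.4% of all. GGGCGG was present in windows of 5 members (35.7% of all windows), TATAAA in windows of 2 (13.6%), CCAAT in windows of 2 (37.4%) and TGACTCA in 0 (5.2%), each searched on both strands. The Ctsd window had 67.3% G and C with 33 CpG dinucleotides, against medians of 52.7% and 7 over all windows. The Ctss and Ctsk windows, with 44.0% and 43.7% G and C and 5 and 2 CpG, lay below both medians.

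The values analysed were FPKM, fragments per kilobase of transcript, relative to all mapped fragments of the library, so levels can be compared between genes per length. Each library had 38320 entries, and the spacing of low values gave rough estimates of 9810350 mapped reads for the wild-type and 11262042 for the knockout library. Fold changes are log2(FPKM + 0.1) of the knockout minus the wild type, after knockout values were divided by 1.02, the median ratio of 11871 genes that reached 1 FPKM in each library. The intervals given with them are approximate 95% counting intervals, which cover counting error in 2 pooled libraries and no difference between animals. The labelled stromal cell type was checked against marker lists of several cell types. The macrophage list had the highest median level of them and the stellate cell list the lowest, in both libraries. The 18 stellate cell and myofibroblast markers had a median FPKM of 2.90 in the wild-type and 3.80 in the knockout library, with Des, the intermediate filament desmin, at 1.70 and 3.29, Acta2, which encodes αSMA, at 7.77 and 5.65, and Pdgfrb at 1.03 and 1.43. The most abundant of the list were Dcn at 127 and 186, Col3a1 at 115 and 164, Col1a2 at 102 and 151 and Col1a1 at 70.2 and 103, which encode decorin and fibrillar collagens. The 20 macrophage markers had medians of 342 and 276, with Cd68 at 646 and 679, Adgre1 at 162 and 165 and the Kupffer cell lectin Clec4f at 1117 and 753. The paper reports Des and Acta2 in these cells and an absence of markers of hepatocytes and Kupffer cells. How that was measured is not given in the sources used here. In the deposited values Clec4f was present, as was the hepatocyte marker Alb, at 2292 and 912. No stellate cell or macrophage marker was at 0 in either library. Lrat (0.078 and 0.11), Ngfr (0.13 and 0.076) and Reln (0.68 and 0.31) of the stellate cell list had a mean FPKM below 1. In bulk RNA of this kind, fewer cells of a type and less RNA per cell cannot be told apart.

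All members but Ctsk were among the 300 most abundant genes of both libraries, and no member differed by 1.5-fold between genotypes. All 10 passed the filter of a mean FPKM of at least 1, and 9 exceeded 300 FPKM in each library. Their summed FPKM was 8743 in wild-type and 8739 in knockout cells, which was 1.16% and 1.31% of each library's total. The count past 1.5-fold was 0 of 10 in either direction, while of the 12692 genes passing the filter 12.8% were higher by that factor in the knockout library and 13.2% were lower, together 26.0%. Among the 353 genes whose mean FPKM reached 300, as it did for 9 members, the share in either direction was 15.6%, so a count of 0 in 10 is not far from that of genes of like level. These shares were 8.08%, 11.1% and 19.2% at a mean FPKM of 5 or more, and 10.5%, 8.85% and 19.4% without a filter. At a threshold of 2-fold, 4.35% were higher and 6.21% lower, again with 0 members. The members' log2 fold changes ran from −0.23 to 0.17 with a median of 0.010, against a median of 0.0050 over all genes tested. Of the 10 genes, 5 lay above 0 and 5 below.

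**Figure D1:**
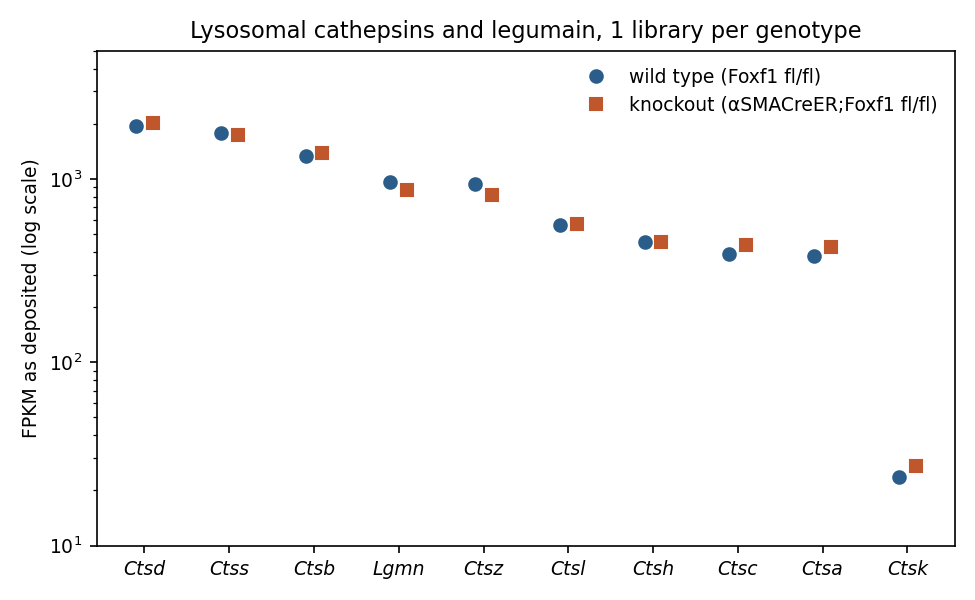
FPKM as deposited, on a log axis, of each member in the wild-type library (circles) and the knockout library (squares), ordered by wild-type level, with 1 library per genotype. The order is the same in both libraries, from Ctsd at 1934 and 2015 down to Ctsk at 23.6 and 27.0.

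Ctsd (ENSMUSG00000007891, chromosome 7 from 142375911 to 142388038 of GRCm38, minus strand) encodes cathepsin D, the main aspartic protease of lysosomes. Its FPKM was 1934 in wild-type and 2015 in knockout cells. It had the highest level of the 10 genes and ranked 38 among all symbols in the first library and 26 in the second. The log2 fold change was 0.033 (counting interval 0.011 to 0.054). Per length, Ctsd made up 22.1% of the members' summed FPKM in wild-type and 23.1% in knockout cells, and these shares do not depend on how the libraries are scaled to each other. The deposited entry for Ctsd begins at 142371148, before the gene in GENCODE M21, so its value may include reads from outside that gene. In GENCODE M21 Ctsd shares 808 exonic bases with Gm49369 on the same strand, a gene with no usable value of its own here. Ctsa (ENSMUSG00000017760, chromosome 2 from 164832873 to 164841032, plus strand) encodes cathepsin A, a carboxypeptidase that also protects lysosomal β-galactosidase and neuraminidase. Its FPKM was 380 and 425, the lowest but one of the set, and its log2 fold change was 0.13 (0.044 to 0.23). Its exons share 495 bases with those of Pltp on the opposite strand, a gene with an FPKM of 277 and 336, and the sources used here do not say whether counting used strand. Neu1, the neuraminidase that Ctsa protects, had 78.0 and 65.2, so that the FPKM of Ctsa was 4.87 times that of Neu1 in wild-type and 6.51 times in knockout cells, a log2 difference of 0.42 (0.29 to 0.55). Relative to Glb1, the β-galactosidase, Ctsa was 39.1 and 37.0 times as high, a difference of −0.082 (−0.34 to 0.18). Both ratios were formed after the values had been seen, and Neu1 and Glb1 themselves had log2 fold changes of −0.28 and 0.21.

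The endopeptidases of the papain family covered nearly the whole range of levels. Ctss (ENSMUSG00000038642, chromosome 3 from 95526786 to 95556403, plus strand) encodes cathepsin S, which trims the invariant chain of MHC class II in antigen-presenting cells. Its FPKM was 1771 in wild-type and 1738 in knockout cells, a log2 fold change of −0.053 (−0.081 to −0.026). Ctsk (ENSMUSG00000028111, chromosome 3 from 95499256 to 95509362, plus strand) encodes cathepsin K, the collagenase of osteoclasts that fibroblasts also make. It was the lowest member, with an FPKM of 23.6 and 27.0 and a log2 fold change of 0.17 (−0.045 to 0.38), and rested on about 304 and 400 reads. The 2 genes lie on the same strand with 17423 bases between them. The FPKM of Ctss was 75.1 times that of Ctsk in wild-type cells (counting interval 67.0 to 84.1) and 64.3 times in knockout cells (58.2 to 71.0). Thus the protease best known for collagen was the least abundant of the set in both libraries.

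Ctsb (ENSMUSG00000021939, chromosome 14 from 63122462 to 63145923, plus strand) encodes cathepsin B, which acts both as an endopeptidase and by removing dipeptides from the carboxyl end. Its FPKM was 1329 in wild-type and 1388 in knockout cells, a log2 fold change of 0.037 (0.0042 to 0.069). Ctsl (ENSMUSG00000021477, chromosome 13 from 64359337 to 64370890, minus strand) encodes cathepsin L, a strong endopeptidase that can cleave collagen and elastin. Its FPKM was 563 and 569, a log2 fold change of −0.012 (−0.086 to 0.061). The ratio of Ctsl to Ctsb was 0.424 in wild-type and 0.410 in knockout cells. The entry for Ctsl in the files spans 64363214 to 64370306 and is shorter than the GENCODE gene, so its longest GENCODE transcript, of 6168 bases, was not what the deposited value was computed on. The exons of Ctsb share 774 bases with those of Fdft1 on the opposite strand, which had an FPKM of 5.77 and 5.87. Those of Ctsl share 1742 bases with the antisense gene Gm47123 and 395 with the pseudogene Gm49230 on the same strand. Neither of these had a usable value.

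The exopeptidases of the papain family lay in the lower part of the order, from the fifth place to the eighth. Ctsz (ENSMUSG00000016256, chromosome 2 from 174427493 to 174439039, minus strand) encodes cathepsin Z, also called cathepsin X, a carboxypeptidase. Its FPKM was 943 in wild-type and 820 in knockout cells, and its log2 fold change of −0.23 (−0.27 to −0.19) was the lowest of the set. Even so, 36.4% of all genes tested lay closer to 0. Ctsh (ENSMUSG00000032359, chromosome 9 from 90054152 to 90076089, plus strand) encodes cathepsin H, an aminopeptidase. Its FPKM was 450.5 in wild-type and 450.7 in knockout cells, with a log2 fold change of −0.026 (−0.099 to 0.048). Ctsc (ENSMUSG00000030560, chromosome 7 from 88278085 to 88310888, plus strand) encodes cathepsin C, a dipeptidyl peptidase that activates the serine proteases of neutrophil, mast cell and lymphocyte granules. Its FPKM was 389 and 436, a log2 fold change of 0.14 (0.063 to 0.22).

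Lgmn (ENSMUSG00000021190, chromosome 12 from 102394084 to 102439813, minus strand) encodes legumain, the asparaginyl endopeptidase that processes several cathepsin precursors into their mature chains. Its FPKM was 959 in wild-type and 871 in knockout cells, and its log2 fold change was −0.17 (−0.20 to −0.13). Lgmn and Ctsz were the members with the lowest fold changes, and their shares of the summed FPKM of the set went from 11.0% to 9.97% and from 10.8% to 9.38%. Relative to Ctsd, the level of Ctsz was 0.488 in wild-type and 0.407 in knockout cells, a log2 difference of −0.26 (−0.30 to −0.22), and that of Lgmn was 0.496 and 0.432, a difference of −0.20 (−0.24 to −0.16). These within-library ratios were formed after the values had been seen and are not free of a trend of fold change with transcript length. With the trend by longest transcript removed, Ctsz (0.071) and Lgmn (0.047) were positive but below Ctsd (0.17), and Ctsl and Ctsb were lowest. With the trend by median transcript length removed, Lgmn (−0.22) and Ctsz (−0.21) remained the lowest.

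Per length, the order of the levels was the same in both libraries, with Ctsd first, then Ctss, Ctsb, Lgmn, Ctsz, Ctsl, Ctsh, Ctsc, Ctsa and Ctsk. As shares of estimated reads on the longest transcript the order differed, with Ctsb first at 26.9% of the members in wild-type cells, Ctsd at 17.5%, Ctsl at 14.8% and Ctss at 10.2%. The read numbers behind the counting intervals used the median transcript length instead. By these Ctsd came first, with about 32697 reads in wild-type cells against 13946 for Ctsb. Neighbours in the order per length were separated by more than counting error except for Lgmn and Ctsz (ratio 1.02, interval 0.993 to 1.04) and Ctsc and Ctsa (1.02, 0.963 to 1.09) in wild-type cells, and Ctsh and Ctsc (1.03, 0.983 to 1.09) and Ctsc and Ctsa (1.03, 0.973 to 1.08) in knockout cells. The largest step, between Ctsa and Ctsk, was 16.1-fold in wild-type and 15.7-fold in knockout cells. The counting interval of the fold change lay above 0 for 4 members (Ctsa, Ctsb, Ctsc and Ctsd), below 0 for 3 (Ctss, Ctsz and Lgmn), and held 0 for 3 (Ctsh, Ctsk and Ctsl). The intervals are narrow because of the many reads behind them, about 39103 in the knockout library for Ctsd, and say nothing of the spread between mice.

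**Figure D2:**
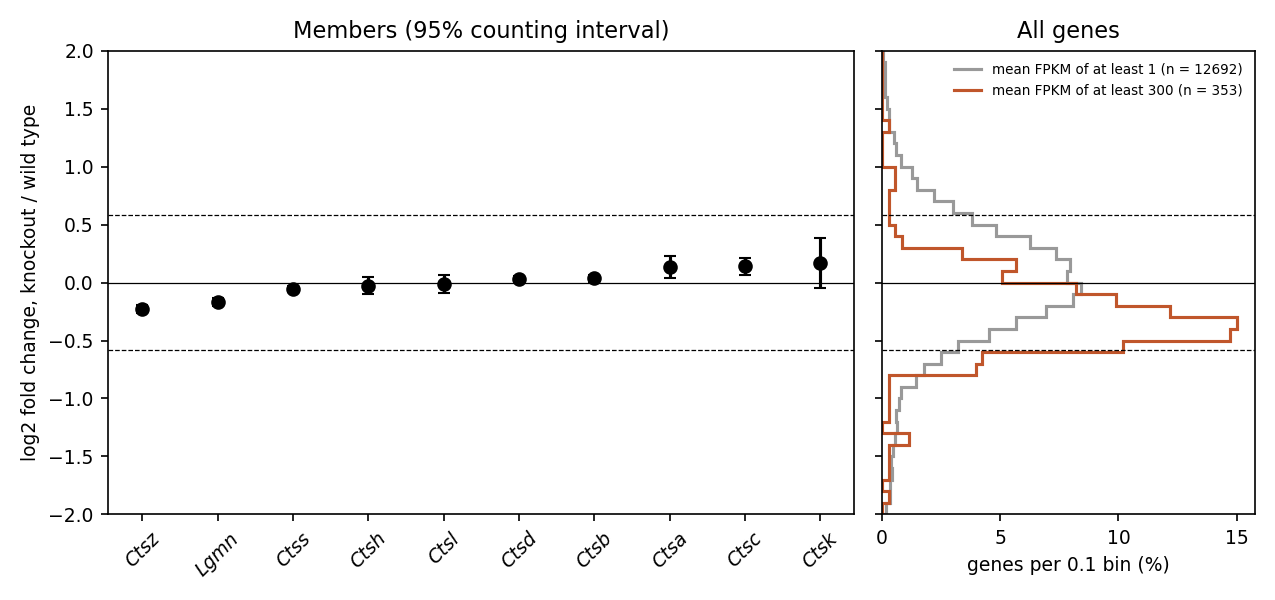
Left, log2 fold change (knockout over wild type) of each member with its 95% counting interval, and right, the share of all genes in bins of 0.1 at a mean FPKM of at least 1 (n = 12692) and of at least 300 (n = 353). Dashed lines mark 1.5-fold, and all members lie between them, from −0.23 for Ctsz to 0.17 for Ctsk, whereas the median of the 353 abundant genes is −0.31.

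Relative to the median gene, abundant genes as a whole had lower values in the knockout library than the members did. Of the 353 genes whose mean FPKM reached 300, a group that holds 9 of the members, 63 had a fold change above 0 and 290 below, and the median log2 fold change was −0.31. Of these 353, 13.3% were lower by 1.5-fold or more and 2.27% higher. With the minimum at 100 the median over 966 genes was −0.23, and 11.0% were lower and 1.55% higher, together 12.5%. The range spanned by the members, −0.23 to 0.17, held 30.3% of the 353 abundant genes. The direction of single members depended on the scaling. Under an equal FPKM sum, which shifts the median of all genes to 0.20, 9 members lay above 0, and with scaling to the macrophage markers, which shifts it to 0.23, 9 also did. With scaling to genes at a mean FPKM of 100 or more, all 10 did. No setting tried brought a member to 1.5-fold, and over all of them the fold changes ran from −0.35 (Ctsl) to 0.47 (Ctsk), both with the length trend removed. That value of Ctsl rests on a longest transcript that was not behind its deposited FPKM. By the length trend, genes with longer transcripts tended to have higher fold changes. The Spearman rank correlation of fold change with longest transcript length was 0.45 over 12692 genes.

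**Figure D3:**
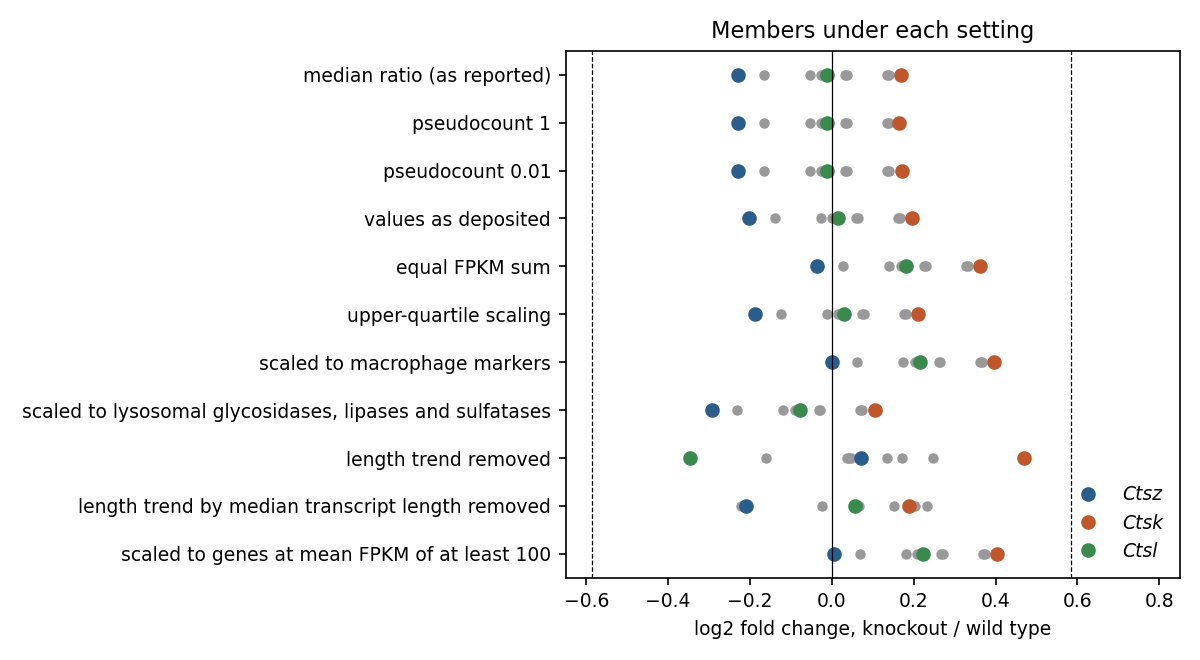
Log2 fold change of each member (points) under each way of processing the values, with Ctsz, Ctsk and Ctsl coloured and dashed lines at 1.5-fold. Scaling shifts the points together, removal of a trend with transcript length changes their order, and all stay between the dashed lines.

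Genes that work with the cathepsins were read from lists, whose counts stand beside 12.8% of all genes 1.5-fold higher and 13.2% lower. Among 10 other lysosomal peptidases, 0 were 1.5-fold higher or lower and the median log2 fold change was −0.14. The tripeptidyl peptidase Tpp1 had an FPKM of 49.3 and 63.7 (log2 fold change 0.34), and Dpp7 and Scpep1, a dipeptidyl peptidase and a serine carboxypeptidase, had 78.9 and 70.5 and 144 and 135. Dpp7, Scpep1 and the list's median turned positive under an equal FPKM sum and with scaling to the macrophage markers or to abundant genes, and Scpep1 and the median also with the length trend removed. The other lysosomal hydrolases, 27 glycosidases, lipases, sulfatases and nucleases with a value, had a median of 0.065, with 2 at least 1.5-fold higher (Ids and Arsb, which degrade glycosaminoglycans) and 1 lower (Dnase2a, which degrades DNA of engulfed cells, 74.1 and 47.4). Hexa, Lipa and Fuca1, the most abundant of them, had 234 and 208, 131 and 153, and 140 and 116. The members therefore stood well above the other hydrolases in level, since the highest of the 27 was Hexa at 234 and only Ctsk among the members was lower.

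For sorting and membrane proteins of lysosomes, 3 of 21 genes were higher by 1.5-fold or more and 0 were lower, with a median of 0.0077. Over all genes passing the filter these shares were 12.8% and 13.2%, so 3 higher in 21 is near the share of all genes. Sort1 lay at the threshold, and the count was 2 with a pseudocount of 1 or the length trend removed and 5 under an equal FPKM sum. The 3 were Gnptab, a subunit of the enzyme that makes the mannose 6-phosphate tag (8.36 and 16.1, log2 fold change 0.91, counting interval 0.39 to 1.43), Gga3, an adaptor for tagged cargo (11.9 and 23.1, 0.92, 0.58 to 1.26), and Sort1, the receptor sortilin (5.33 and 8.21, 0.59, 0.40 to 0.78). All 3 were low beside the most abundant genes of the list, Psap, the saposin precursor, at 2629 and 2856, Grn, progranulin, at 890 and 797, and the membrane protein Lamp1 at 585 and 543. The level of Ctsd relative to Psap was 0.736 and 0.706. Among 17 subunits of the vacuolar ATPase, the pump that acidifies lysosomes, 0 were 1.5-fold higher and 1 was lower (Atp6v1f, 334 and 215.5, log2 fold change −0.66), with a median of −0.21. That median was 0.016 with scaling to the macrophage markers, 0.022 with scaling to genes at a mean FPKM of 100 or more and −0.019 with the length trend removed. Atp6v1f was then at −0.43, −0.42 and −0.25, so its call was lost in each. Under either of these scalings 2 subunits were at least 1.5-fold higher, and 0 with the length trend removed. Atp6v0c and Atp6v0b, at 583 and 512 and at 439 and 352, were the most abundant.

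Among 10 cystatins and other cathepsin inhibitors, 7 passed the filter, 6 with a fold change below 0 and 1 above (Cst7, 3.78 and 5.08, 0.39, counting interval −0.28 to 1.06), and their median log2 fold change was −0.42. Only 1 was at least 1.5-fold lower, Stfa2 (1.61 and 0.947), whose counting interval from −2.88 to 1.42 held 0. Cst3, the secreted cystatin C, had an FPKM of 1841 in wild-type and 1406 in knockout cells (log2 fold change −0.42, counting interval −0.46 to −0.37). Cstb, the cytosolic cystatin B, had 748 and 534 (−0.51, −0.59 to −0.44), and the serpin Serpinb6a had 203 and 152 (−0.45, −0.57 to −0.33). All 3 fold changes stayed negative under all 11 other settings, Cst3 only just with the length trend removed (−0.011), and the median of the list ran from −0.48 to −0.11. The level of Ctsb relative to Cst3 was 0.722 in wild-type and 0.987 in knockout cells, a log2 difference of 0.45 (0.40 to 0.50), and relative to Cstb it was 1.78 and 2.60, a difference of 0.55 (0.47 to 0.63). Relative to Cst3, Ctsl had 0.306 and 0.405 and Ctss had 0.962 and 1.24. These ratios are free of the scaling but not of the trend with transcript length. They were formed after the values had been seen and compare single libraries. With the trend by longest transcript removed, Ctsb (−0.16) and Ctsl (−0.35) fell below Cst3 (−0.011) and Cstb (−0.11), which reverses their ratios. The length used there for Ctsl, 6168 bases, is not the one behind its deposited value, so its reversal is uncertain. Ctss (0.25) stayed above both Cst3 and Cstb. With the trend by median transcript length removed, Ctsb (0.15), Ctsl (0.056) and Ctss (0.061) stayed above Cst3 (−0.32) and Cstb (−0.38). Cst3 and Cstb are among the 353 abundant genes, whose median was −0.31.

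**Figure D4:**
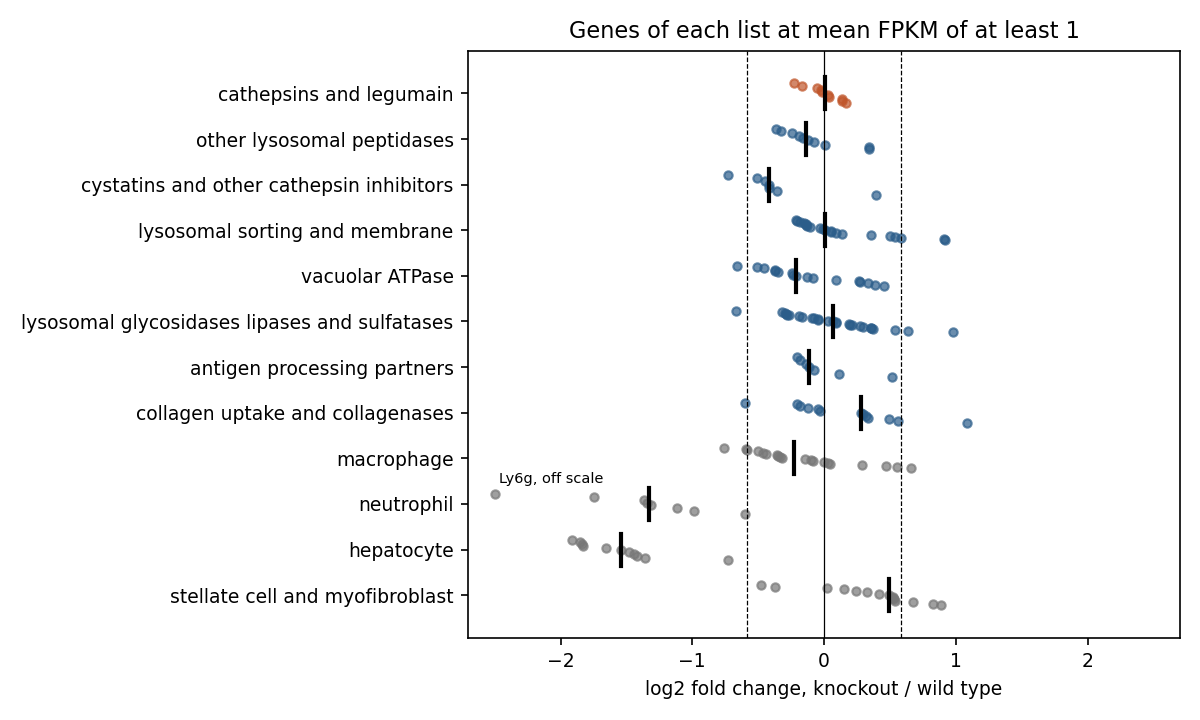
Log2 fold changes (knockout over wild type) of the genes at a mean FPKM of at least 1 in each list, with the members at the top, pathway lists next and marker lists of 4 cell types in grey. Black bars mark medians, dashed lines mark 1.5-fold, and the neutrophil gene Ly6g, at 0 in the knockout library, is drawn at the left edge. The members lie between −0.23 and 0.17, while the medians of the inhibitor, neutrophil and hepatocyte lists are −0.42, −1.33 and −1.54.

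In antigen processing, where Ctss acts, 0 of 7 genes were 1.5-fold higher or lower, and the median was −0.12. The invariant chain gene Cd74 had an FPKM of 4066 and 3819, H2-Aa had 1523 and 1473, and H2-Ab1 had 1351 and 1191. Their fold changes, −0.12, −0.075 and −0.21, turned positive with scaling to the macrophage markers or to abundant genes, and in part with the length trend removed or an equal FPKM sum. Ctss relative to Cd74 was 0.436 in wild-type and 0.455 in knockout cells. Among 14 genes of collagen uptake and extracellular collagen cleavage, 13 passed the filter, 1 was at least 1.5-fold higher (Itga1, a collagen-binding integrin, 2.68 and 5.91) and 1 was lower (Mmp8, the neutrophil collagenase, 5.85 and 3.90), with a median of 0.28. The call of Mmp8 was lost with a pseudocount of 1 and with values as deposited, among others, and the median was 0.036 with the length trend removed and 0.51 with scaling to the macrophage markers. Mmp14, a membrane-bound collagenase, had 232 and 228, the metalloproteinase inhibitor Timp1 had 230 and 229, and Mmp12, the macrophage elastase, had 221 and 316. The log2 fold change of Mmp12 was 0.49 (0.42 to 0.56) and stayed positive under all 11 other settings. Thus 9 of the 10 lysosomal proteases had higher levels per length than any gene of this list, and Ctsk lay below Mmp14, Mmp12 and Timp1.

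Marker lists of other cell types differed in how far they moved between the libraries. All 11 hepatocyte markers with a value were at least 1.5-fold lower in the knockout library (Alb from 2292 to 912, Ttr from 322 to 86.8, Apoa1 from 261 to 84.2), with a summed FPKM of 4434 and 1580. All 8 neutrophil markers were at least 1.5-fold lower, with a summed FPKM of 2315 and 928, and Mmp8 among them lay at the threshold. The count was 10 of 11 for hepatocytes and 7 of 8 for neutrophils under an equal FPKM sum, and 6 of 8 neutrophil markers were past it with the length trend removed. Of 20 macrophage markers, 14 lay below 0, 3 of them at least 1.5-fold lower (Clec4f, Aif1 and Cd163) and 1 at least 1.5-fold higher (Itgam), with a median of −0.23 and a summed FPKM of 14471 and 12223. Under an equal FPKM sum these macrophage counts turned to 0 lower and 3 higher, with a median of −0.037, and with values as deposited 1 was lower and 1 higher. Of 15 stellate cell and myofibroblast markers that passed the filter, 13 lay above 0, with a median of 0.49 and a summed FPKM over all 18 of 457 and 658, and 3 were at least 1.5-fold higher, against 9 under an equal FPKM sum. The 2 below 0 were Acta2 (−0.48, counting interval −0.91 to −0.046) and Tagln (−0.37, −1.02 to 0.28). The median of this list was 0.29 with the length trend removed. Of 10 endothelial markers 0 reached 1.5-fold, with a median of 0.18. Of 8 lymphocyte markers 1 was lower (median 0.16), of 5 dendritic cell markers with a value past the filter 1 was higher (0.12), and of 5 cholangiocyte markers 1 was lower (0.26). The summed FPKM of the members, 8743 and 8739, was larger in both libraries than the sum of each of these marker lists except the macrophage list. The part of these cell types in the members' levels was not tested.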

How the data were processed

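RNA-seq was analysed for 1 pooled library per genotype. The authors aligned reads with TopHat (mm10) and deposited FPKM from Cufflinks for each Ensembl gene, scaled for transcript length and library size. Versions are not given in the sources used here. The study's own DESeq comparison used a separate quantification, which was not repeated. Of 38320 entries, 36490 had a symbol in GENCODE M21 (GRCm38), and 3 with a failed status were left out. For a repeated symbol the entry of highest mean was kept. A pseudocount of 0.1, a minimum mean FPKM of 1 and the study's factor of 1.5 were used. FPKM are not counts, so no count test was run.

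Read numbers were inferred from steps between low FPKM of single-transcript genes, assuming fragments of 200 bases. Of such values, 46.1% and 48.0% came within 0.1 of whole reads, so intervals are approximate. The procedure was tested on simulated data made with the same transcript lengths and fragment size, so that test cannot check those assumptions.

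Members and lists were chosen with earlier results of these data known. The genes named are the members, the 3 most abundant of each pathway list, up to 5 a list that differed by 1.5-fold with a mean FPKM from 10 upward, and the first 3 macrophage, stellate cell and hepatocyte markers. Any other gene named was chosen after its values were seen. With 2 libraries each gene has a single difference, so no gene was named for a pattern like a member's. Foxf1 was not analysed here. Python 3.11.15, numpy 2.4.6, pandas 2.3.3 and matplotlib 3.10.9 were used.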

Additional observations from a re-analysis of the deposited data

How the results depend on the processing

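No member reached 1.5-fold in either direction under the 11 other settings of scaling, pseudocount, repeated symbols and transcript length, nor 2-fold. The median log2 fold change of the members, 0.010 as reported, was 0.20 with an equal FPKM sum, 0.24 with scaling to the macrophage markers and −0.055 with scaling to the lysosomal glycosidases, lipases and sulfatases. With scaling to genes at a mean FPKM of at least 100, chosen after seeing the data, it was 0.24, and all 10 members lay above 0. A scaling shifts every gene alike by construction. The length trend does not, and members were shorter than other genes by longest transcript (medians 2435 and 3066.5 bases). Cst3, Cstb and Atp6v1f, with lower values in the knockout library, have 860, 603 and 806 bases. Gnptab, Gga3 and Sort1, with higher values, have 5390, 4848 and 6836. Not every gene followed the trend, as Dnase2a was lower with 4073. The cause of the change with transcript length was not tested. Signs of single members changed for 5 of 10 with scaling to genes at a mean FPKM of 100 or more (Ctsh, Ctsl, Ctss, Ctsz and Lgmn) and for 5 with the length trend removed (Ctsb, Ctsh, Ctss, Ctsz and Lgmn). In the latter Ctsl moved from −0.012 to −0.35, and with median in place of longest transcript length, an alternative added after seeing the data, it was 0.056. The pseudocounts of 1 and 0.01 and summing over entries changed no sign. An equal FPKM sum gave 2690 of all genes at least 1.5-fold higher and 1130 lower, against 1624 and 1678, and without a filter there were 3832 and 3225. With a minimum mean of 5 there were 685 and 943, and at 2-fold 552 and 788. A pseudocount of 1 gave 1083 higher genes, and scaling to the macrophage markers gave 2949 and 1065. As a share of estimated reads on the longest transcript, Ctsl was 14.8% of the members in wild-type cells against 6.44% per length, and Ctsb, not Ctsd, came first. No paired analysis was possible because only 1 library per genotype was made, and no library could be left out. Depth limits Ctsk most, at about 304 reads.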

Other observations

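Other genes of the cathepsin family were low in both libraries. Ctsf had an FPKM of 13.6 in wild-type and 10.8 in knockout cells, Ctso had 9.31 and 12.1, Ctsw, which cytotoxic lymphocytes make, had 9.06 and 8.27, and the aspartic protease Ctse had 7.47 and 7.63. Ctsg, a serine protease of neutrophil granules, had 2.57 and 0.323, on about 15 and 2 reads. Among the cathepsins of chromosome 13 that are known from the placenta, Ctsj had 1.11 and 1.74, Cts8 had 0.0437 and was listed at 0 in the knockout library, and Cts3, Cts6, Cts7, Ctsm, Ctsq, Ctsr and Ctsll3 were listed at 0 in both.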
